A study of Drosophila melanogaster with 4 samples.

Results

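The genes described here are known from work on the daily remodelling of the axon terminals of small ventral lateral neurons (small LNv), clock neurons of the fly brain that release the neuropeptide PDF. They are Mef2, Fas2, Rho1, Mmp1, Mmp2 and Pura, 6 genes out of 14161 gene rows in each deposited table. The genes were named for that role, though with earlier results of these data known. For 5 of the 6 a row carries the symbol itself. The row CG33275 was taken for Pura, the name by which the RefSeq table lists it. Per the annotation, Mef2, Rho1, Mmp1 and Mmp2 lie on chromosome arm 2R, Fas2 on X and Pura on 3L. Levels are given in CPM, reads scaled to 1000000 gene reads of a library. All 6 genes reached the mean of 1 CPM that was asked of a gene before testing, as did 9404 genes in all.

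The series holds 4 RNA-seq libraries of amplified mRNA from dvpdf neurons of Drosophila melanogaster brains. In 2 libraries, labelled NonA RNAi, the nuclear RNA-binding protein gene nonA was targeted by RNA interference in these cells, and 2 libraries are labelled control. The labels give no full genotype, RNAi line, driver of the controls, sex, age, number of animals or time of day, and they do not separate small LNv from the other dvpdf neurons. Nothing in them says that replicates came from separate dissections, so p-values reflect how far these libraries spread, for technical reasons or others.

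As background, the dorsal terminals of small LNv spread in the morning and fold together toward night. The transcription factor MEF2, itself under control of the CLK and CYC clock activators, is known to repress Fas2, whose product is an adhesion molecule that holds axons in a bundle. The GTPase RHO1, switched on by the exchange factor PURA, is known to act on the retraction of these terminals through actomyosin, and the matrix metalloproteinases MMP1 and MMP2 cut proteins outside the cell and are known to reduce the complexity of the arbor.

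Reads assigned to genes came to between 8419248 and 9832771 per library. The targeted gene nonA was at 168 and 283 CPM in the NonA RNAi-labelled libraries, against 256 and 240 CPM in those labelled control, so its level in NonA RNAi replicate 2 went against the label. Libraries are therefore named by their labels, and every direction below rests on the label alone. Pdf, the marker gene of LNv, was read in all libraries, at 18440 and 86570 CPM in those labelled NonA RNAi and at 4979 and 2159 CPM in those labelled control. Over 7 markers of PDF and clock neurons, Pdf among them, the summed level was 23300 and 89950 CPM in the NonA RNAi-labelled libraries and 8129 and 3962 CPM in the controls. Pdf alone made up most of the sum in every library. The next highest marker, tim, was at 2594 and 1929 CPM against 1636 and 830 CPM in the controls. Of these 7, 6 were higher by fitted fold, 4 (Pdf, tim, cry and vri) lay above both controls, and the median log2 fold was 0.58. Over all genes tested, 49.6% were higher by fitted fold and 15.2% lay above both controls. The part of the share of such neurons in the levels given below was not tested. In bulk RNA fewer cells of a type and less RNA per cell cannot be told apart.

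Of the 6 remodelling genes, 4 were higher and 2 lower in the NonA RNAi-labelled libraries by fitted fold, and 0 of the 6 passed an adjusted p of 0.05 in edgeR's quasi-likelihood test, where 0 of 9404 genes (0%) did. At an unadjusted p under 0.05 in edgeR there was 1 remodelling gene, Mmp1, against 457 genes, or 4.86%, over all. DESeq2 called 142 genes but none of these 6, and limma-voom called 0 genes. For 4 of the 6 the groups were free of overlap, 2 above (Mef2, Mmp2) and 2 below (Rho1, Mmp1). The same was true of 32.8% of all genes tested, 15.2% above and 17.5% below. The median log2 fold was 0.49 for the remodelling genes and -0.01 over all genes tested.

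**Figure D1:**
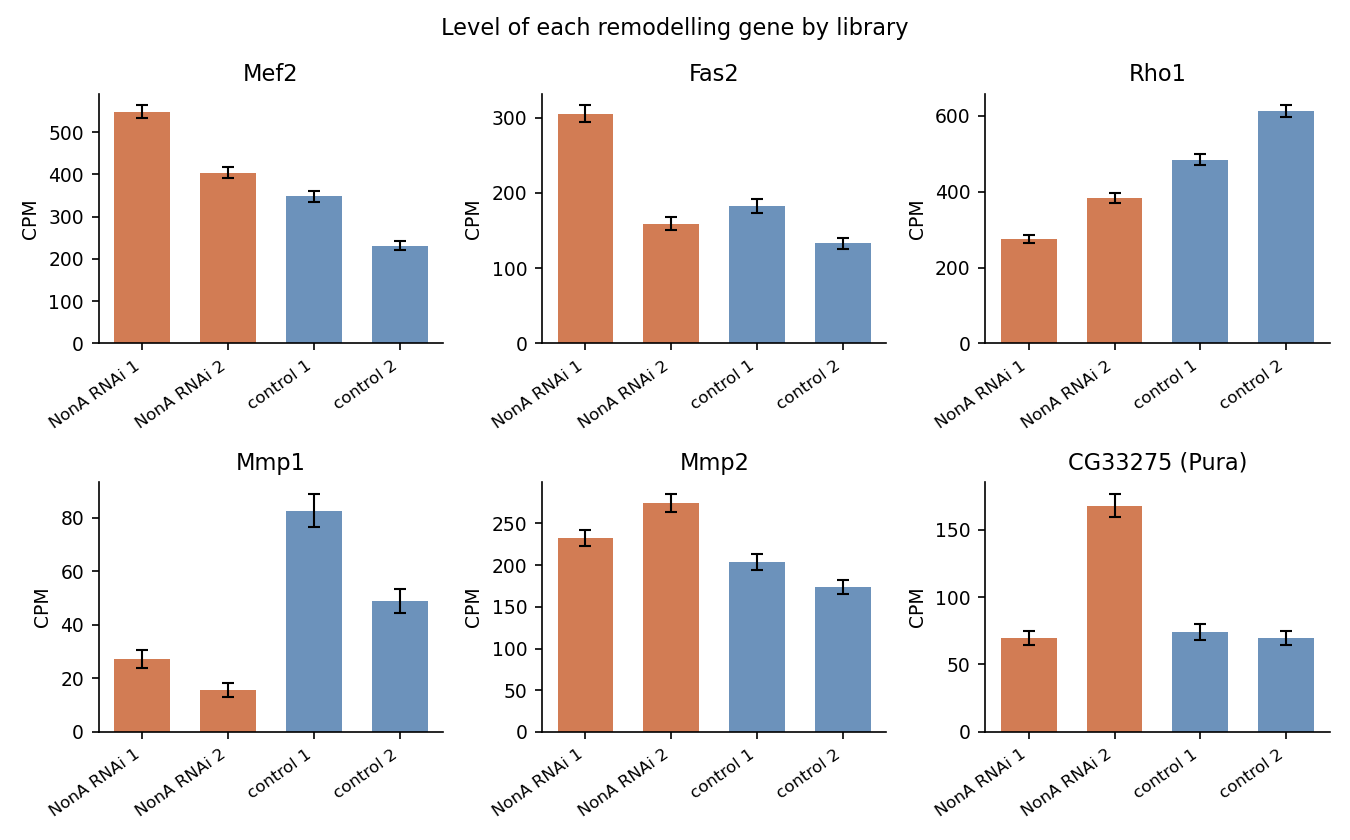
Level of each gene in CPM (reads scaled to 1000000 gene reads) in the 4 libraries, those labelled NonA RNAi in orange and those labelled control in blue; bars start at 0 and error bars are exact 95% Poisson intervals, which cover counting error only. Mmp1 lies at 27.2 and 15.5 CPM in the NonA RNAi-labelled libraries and at 82.6 and 48.8 CPM in those labelled control, and Pura stands out in NonA RNAi replicate 2 alone.

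The transcription factor gene Mef2 stood at 548 and 404 CPM in replicates 1 and 2 labelled NonA RNAi, against 348 and 231 CPM in the control replicates. Both NonA RNAi-labelled libraries lay above both controls, though the lower of them exceeded the higher control by less than the controls differed from each other. The means were 476 ± 102 CPM and 290 ± 82.3 CPM (SD, n = 2 each). The log2 fold was 0.72 (standard error 0.48) with a 95% interval from -0.45 to 1.88, at an adjusted p of 0.924 in edgeR. Without single libraries it ranged from 0.45 to 1.04.

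MEF2 is also a central factor of muscle, and muscle transcripts were read almost only in the library where Mef2 was highest. NonA RNAi replicate 1 held 114 CPM of the actin gene Act57B, 53.2 CPM of the myosin heavy chain gene Mhc, 230.1 CPM of the titin-like gene sls and 162 CPM of the titin-like gene bt. In NonA RNAi replicate 2 these genes were at 0.117, 0, 0 and 1.17 CPM, and in the controls none exceeded 10.3 CPM. Over 14 muscle markers, leaving out Tm1, which was at 198 to 293 CPM in every library, the summed level was 667 and 3.04 CPM in the NonA RNAi-labelled libraries and 18.8 and 26.0 CPM in the controls. A read was found for 12 and 4 of these 14 in the NonA RNAi-labelled libraries and for 8 and 7 in the controls, and TpnC4 had none in any library. The log2 fold of Mef2 was 0.48 when NonA RNAi replicate 1 was left out, and the part of muscle transcripts in its level was not tested.

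Fas2 is the adhesion molecule gene that MEF2 is known to repress, and whether MEF2 acts on it in these libraries was not tested. Fas2 was at 305 and 159 CPM in the NonA RNAi-labelled libraries and 183 and 133 CPM in the controls. The groups overlapped, with NonA RNAi replicate 1 above the other 3 libraries, the same library that was highest for Mef2. The means were 232 ± 103 CPM and 158 ± 35.2 CPM (SD, n = 2 each), with a log2 fold of 0.56, a standard error of 0.52 and an adjusted p of 0.953 in edgeR. With NonA RNAi replicate 1 left out the log2 fold was 0.01, so the difference of the means rested on that library.

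The ratio of 2 genes within a library does not depend on how libraries are scaled. In CPM per kilobase of exon, Fas2 stood at 0.700 and 0.495 times the level of Mef2 in the NonA RNAi-labelled libraries, and at 0.661 and 0.722 times in the controls. These ratios overlapped between the groups, and the difference of their mean log2 values was -0.23.

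Rho1, the gene of the small GTPase, was lower in both NonA RNAi-labelled libraries. It was at 275 and 384 CPM in them, against 484 and 612 CPM in the controls. The groups did not overlap, and the gap between the nearest libraries, NonA RNAi replicate 2 and control replicate 1, was smaller than the gap within either group. The means were 329 ± 77.5 CPM and 548 ± 90.5 CPM (SD, n = 2 each). The log2 fold was -0.73 (standard error 0.47) with a 95% interval from -1.86 to 0.40, at an adjusted p of 0.924 in edgeR, and it ranged from -0.996 to -0.51 without single libraries.

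The exchange factor gene Pura, listed as CG33275, was set apart by a single library. It was at 69.6 and 168 CPM in the NonA RNAi-labelled libraries and at 74.1 and 69.7 CPM in the controls. NonA RNAi replicate 2 stood 2.41 times above replicate 1 of the same label, while the controls differed by a factor of 1.06. The other 3 libraries had counting intervals that overlapped one another, within 64.4 to 80.2 CPM. The log2 fold of 0.72 (standard error 0.55, adjusted p = 0.941 in edgeR) became -0.05 without NonA RNAi replicate 2. That library also held the most Pdf reads, 740916 of its 8558125 gene reads; whether this goes with Pura was not tested.

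Set against its GTPase, Pura per kilobase of exon was at 0.0830 and 0.143 times the level of Rho1 in the NonA RNAi-labelled libraries and at 0.0502 and 0.0373 times in the controls. The ratio was above both controls in both, with a difference of mean log2 values of 1.33. The exact two-sided permutation p was 0.333, the smallest that 2 libraries against 2 can give.

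**Figure D2:**
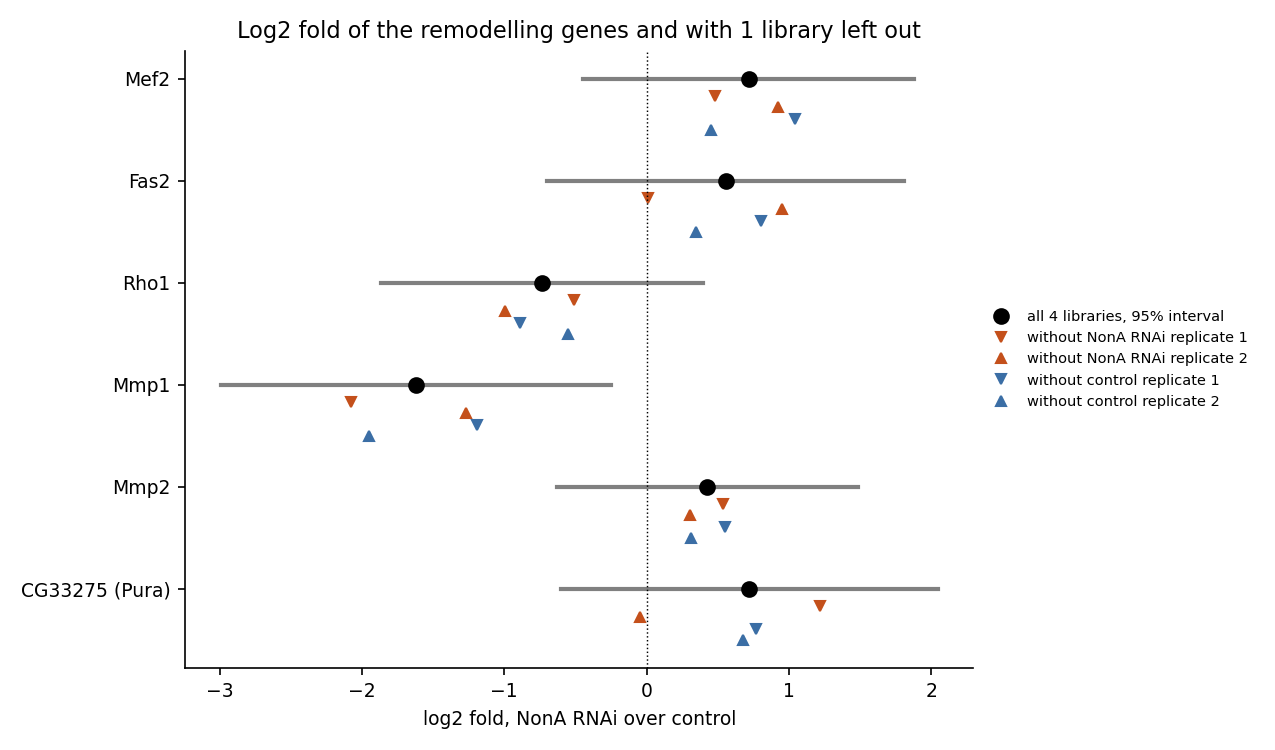
Log2 fold of the NonA RNAi-labelled libraries over those labelled control for each gene (black points) with its 95% interval (grey lines), and the fold with each library left out (triangles). Fas2 moves to 0.01 without NonA RNAi replicate 1 and Pura to -0.05 without NonA RNAi replicate 2, while the other genes stay on the same side of 0.

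The matrix metalloproteinase genes stood in opposite directions. Mmp1, which encodes a mostly secreted enzyme, was at 27.2 and 15.5 CPM in the NonA RNAi-labelled libraries, against 82.6 and 48.8 CPM in the controls, from 263, 133, 695 and 480 reads in that order. The higher library labelled NonA RNAi lay well under the lower control, beyond the exact Poisson intervals of 24.0 to 30.7 CPM and 44.5 to 53.4 CPM. The means were 21.4 ± 8.24 CPM and 65.7 ± 23.9 CPM (SD, n = 2 each), a fitted fold of 0.326. The log2 fold was -1.62 (standard error 0.57) with a 95% interval from -2.99 to -0.25. Its unadjusted p in edgeR was 0.0275, rank 241 of the 9404 genes tested, and its adjusted p was 0.919. In DESeq2 the adjusted p was 0.357. Without single libraries the log2 fold ranged from -2.08 to -1.19, the latter without control replicate 1.

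Of the exon bases of Mmp1 in the Ensembl annotation of release BDGP6, 284, or 5.87%, are shared with Pof on the opposite strand. Pof, the gene of a protein that binds the small autosome of the fly, had a like profile, at 16.6 and 11.4 CPM in the NonA RNAi-labelled libraries and 65.3 and 36.5 CPM in the controls. Its log2 fold was -1.86 (standard error 0.58). Pof had 0.612 and 0.737 reads per Mmp1 read in the NonA RNAi-labelled libraries and 0.791 and 0.748 in the controls. No source says whether counting used strand. Nor is it known whether reads in the shared stretch were counted for Mmp1, for Pof or as ambiguous, an entry that the deposited data hold. The part of such reads in either level was not tested.

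Mmp2, the gene of a membrane-anchored metalloproteinase, was at 232 and 274 CPM in the NonA RNAi-labelled libraries and 204 and 173 CPM in the controls. The groups did not overlap, and the within-group factors of 1.18 in both groups were the smallest after that of Pura in the controls. The means were 253 ± 29.5 CPM and 188 ± 21.7 CPM (SD, n = 2 each), the log2 fold was 0.43 (standard error 0.44), and the adjusted p in edgeR was 0.957. Without single libraries the log2 fold ranged from 0.30 to 0.55. An antisense RNA gene shares 5.67% of the exon bases of Mmp2.

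The level of Mmp1 relative to Mmp2 differed most among the 3 ratios compared. Per kilobase of exon, Mmp1 stood at 0.122 and 0.0593 times the level of Mmp2 in the NonA RNAi-labelled libraries, and at 0.424 and 0.295 times in the controls. The difference of mean log2 ratios was -2.05, and the exact two-sided permutation p was 0.333, the smallest this design allows. As Mmp1 lay below and Mmp2 above both controls, their ratio had to separate the groups, so this p adds nothing. The 3 ratios given here were chosen with the values known.

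**Figure D3:**
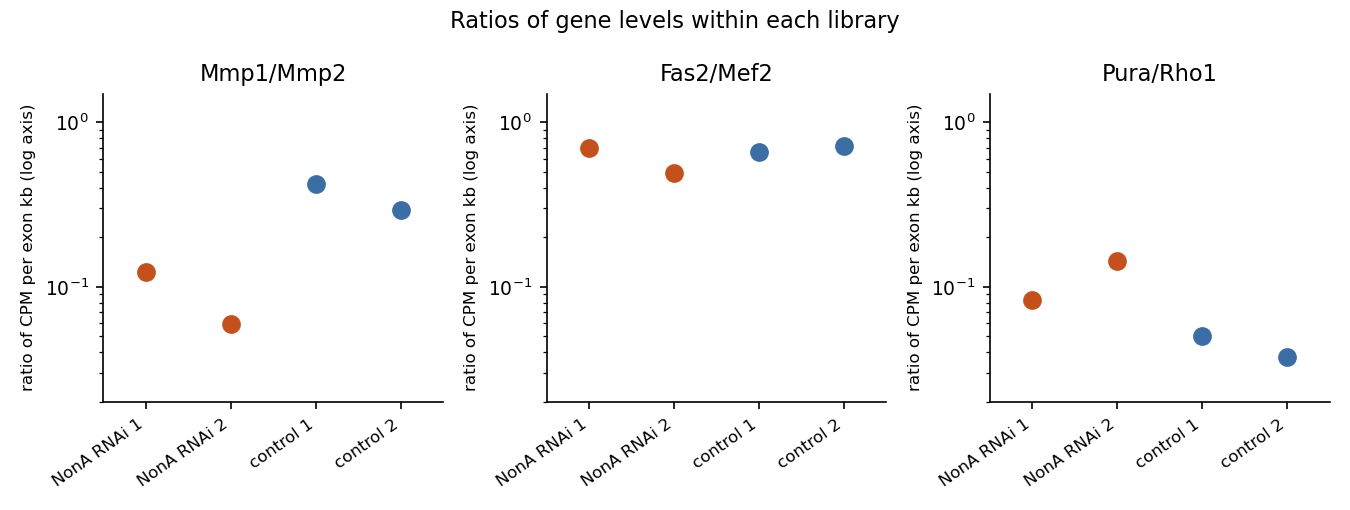
Ratio of Mmp1 to Mmp2, of Fas2 to Mef2 and of Pura to Rho1 within each library, from CPM per kilobase of exon, on log axes; orange points are the NonA RNAi-labelled libraries and blue points those labelled control. The first ratio is lower (0.122 and 0.0593 against 0.424 and 0.295) and the third higher (0.0830 and 0.143 against 0.0502 and 0.0373) in the NonA RNAi-labelled libraries, while Fas2 to Mef2 overlaps between the groups.

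For the order of levels between genes, CPM were divided by the merged exon length, since the deposited lengths follow whole gene spans (73209 bases for Fas2, whose merged exons cover 7306 bases). Rho1 led, at 115 and 161 CPM per kilobase in the NonA RNAi-labelled libraries and 203 and 257 in the controls, between the 92.4th and 96.4th percentile of 9019 genes with a length. Mef2 and Mmp2 followed and were not separated by their spread, Mef2 at 59.6 and 44.0 against 37.9 and 25.2 CPM per kilobase and Mmp2 at 45.9 and 54.1 against 40.2 and 34.2 CPM per kilobase. Fas2 came next, at 41.7 and 21.8 against 25 and 18.2 CPM per kilobase. It was below both Mef2 and Mmp2 within every library, though its range across libraries overlapped with theirs.

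By their mean over all libraries Pura and Mmp1 were the lowest, and they exchanged places between the groups. In NonA RNAi replicate 2, however, Pura lay slightly above Fas2, at 23.0 and 21.8 CPM per kilobase. Pura was at 9.57 and 23.0 CPM per kilobase in the NonA RNAi-labelled libraries and at 10.2 and 9.58 in the controls. Mmp1 was at 5.62 and 3.21 CPM per kilobase in the NonA RNAi-labelled libraries, below Pura in both, and at 17 and 10.1 in the controls, above Pura in both but by little in control replicate 2. Its percentile among all genes was 27.7 and 21.8 in the NonA RNAi-labelled libraries and 53.4 and 39.1 in the controls. Transcript isoforms, which number 11 for Mef2 and 10 for Mmp1 in the annotation, were not told apart.

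The genes around these members were described by lists. Their counts stand beside 49.6% of all genes tested that were higher by fitted fold in the NonA RNAi-labelled libraries. Of 16 effectors of Rho1 and regulators of actin, 6 were higher and 10 lower in the NonA RNAi-labelled libraries by fitted fold, with a median of -0.14. Pkn, a kinase bound by RHO1, was at 102 and 122 CPM against 167 and 214 CPM in the controls, a log2 fold of -0.77, close to that of Rho1 itself. Other effectors of Rho1 in the list stood the other way by fitted fold. rok was at 11.7 and 12.5 CPM against 7.60 and 9.46 CPM in the controls, a log2 fold of 0.50 (standard error 0.90), and dia had a log2 fold of 0.11. The phosphatase gene ssh, whose protein activates cofilin, was at 105 and 34.8 CPM against 15.9 and 33.4 CPM in the controls, and Mlc-c, a myosin light chain gene, overlapped between the groups. The myosin genes sqh and zip had log2 folds of -0.11 and -0.13. In edgeR 0 genes of the list passed.

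The list of metalloproteinase regulators and other surface metalloproteinases was split, with 5 of 10 higher, 5 lower and 0 past the threshold. Timp, the gene of the inhibitor of both MMP1 and MMP2, was at 78.7 and 167 CPM in the NonA RNAi-labelled libraries and 164 and 539 CPM in the controls, a log2 fold of -1.52 (standard error 0.72), and the groups overlapped narrowly. The furin genes, whose proteases cut proproteins in the secretory route, stood on opposite sides of 0 by fitted fold. Fur1 was at 64.7 and 27.3 CPM against 91.8 and 112 CPM in the controls, and Fur2 at 268 and 103 CPM against 75.3 and 71.3 CPM in the controls.

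Genes of the basement membrane and of cell-surface proteoglycans had the lowest median of the 6 lists around the remodelling genes, -1.28 against -0.01 over all genes, with 12 of 13 lower in the NonA RNAi-labelled libraries and 0 past the threshold in edgeR. The laminin gene LanB1 was at 13.3 and 9.70 CPM against 101 and 50.2 CPM in the controls, a log2 fold of -2.71 (standard error 0.59). The perlecan gene trol was at 39.2 and 75.5 CPM against 119 and 186 CPM in the controls, and BM-40-SPARC, a collagen-binding protein gene, at 32.2 and 105 CPM against 273 and 115 CPM in the controls. The exception was Pxn, the peroxidasin gene, at 955 and 155 CPM against 321 and 151 CPM in the controls. Both NonA RNAi-labelled libraries lay below both controls for 6 of the 13, beside 17.5% of all genes tested. For some of the lower genes NonA RNAi replicate 2 stood near control replicate 2. Cg25C was at 5.17 and 109 CPM against 340.5 and 104 CPM in the controls, and vkg at 7.65 and 46.7 CPM against 91.5 and 40.5 CPM in the controls.

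Markers of hemocytes, fat body and glia also differed between these libraries. The summed level of 7 hemocyte markers was 957 and 669 CPM in the NonA RNAi-labelled libraries and 1673 and 593 CPM in the controls. Most of the first value was Pxn, and the defining genes Hml, nimC1, eater, He and srp had no read in NonA RNAi replicate 1, while Hml was at 220.3 CPM in NonA RNAi replicate 2 and at 476 and 219 CPM in the controls. Over 10 fat body markers the sums were 314 and 105 CPM against 3598 and 204 CPM in the controls, all 9 that were tested lower by fitted fold, with Lsp2 at 0 in both NonA RNAi-labelled libraries. Over 9 glial markers the sums were 678 and 2354 CPM against 1931 and 6130 CPM in the controls, with repo read in every library. Gs2 alone was at 3932 CPM in control replicate 2, most of the sum there. By fitted fold 8 of the 9 were lower, Eaat1 by little at -0.07, and Indy was higher. Only 1, nrv2, lay below both controls in both NonA RNAi-labelled libraries, beside 17.5% of all genes tested. Control replicate 1, the highest for Mmp1, was also the highest for hemocyte and fat body markers. Without it the log2 fold of Mmp1 was -1.19. The part of these cells in the levels of Mmp1 and of the matrix genes was not tested.

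**Figure D4:**
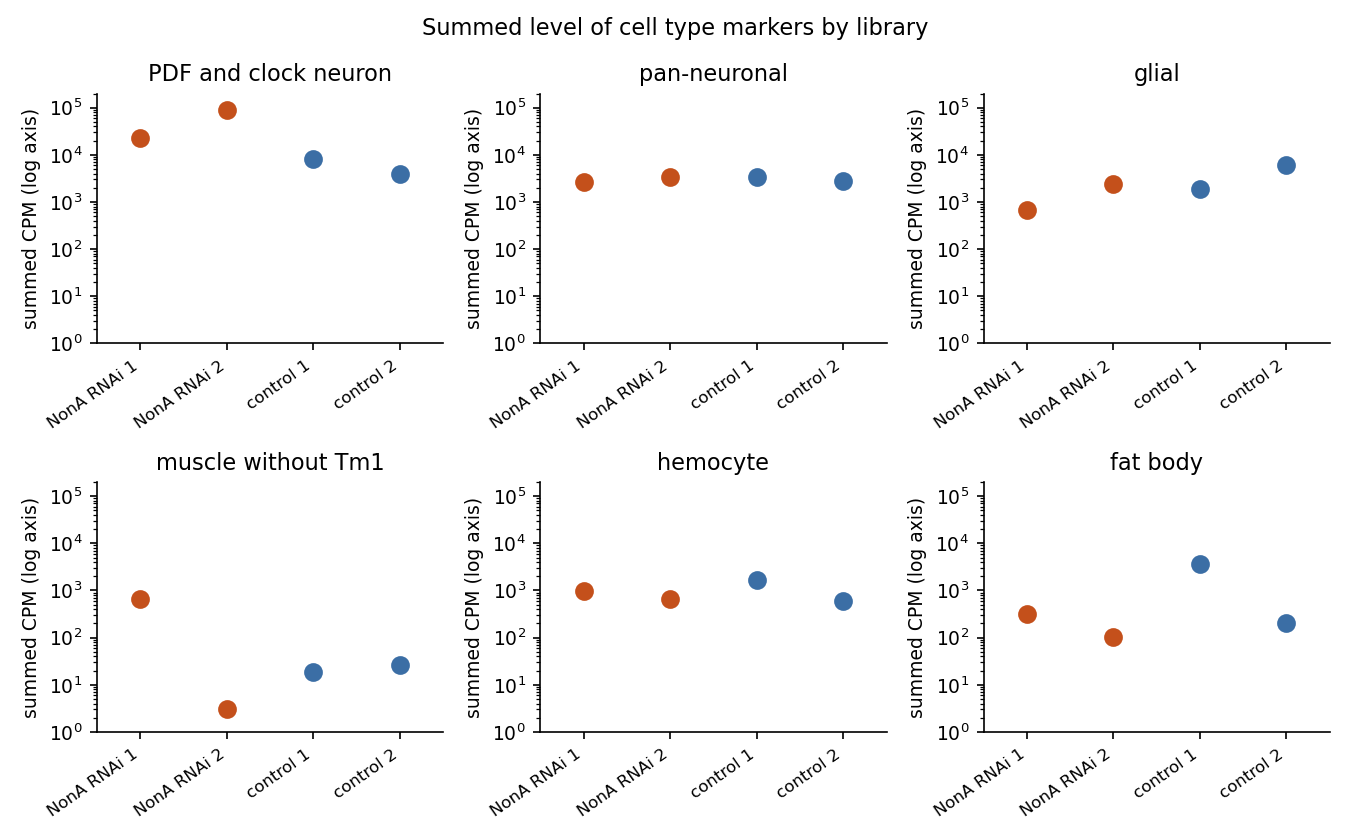
Summed CPM of the markers of 6 cell types in each library, on log axes, with the NonA RNAi-labelled libraries in orange and those labelled control in blue. PDF and clock neuron markers lie at 23300 and 89950 CPM in the NonA RNAi-labelled libraries and at 8129 and 3962 CPM in the controls. Most of each of these sums is Pdf. Muscle markers without Tm1 reach 667 CPM in NonA RNAi replicate 1 and at most 26.0 CPM elsewhere. Fat body markers reach 3598 CPM in control replicate 1, and pan-neuronal markers lie between 2685 and 3460 CPM.

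The summed level of 7 pan-neuronal genes was 2685 and 3458 CPM in the NonA RNAi-labelled libraries and 3460 and 2846 CPM in the controls, with a median log2 fold of -0.02. Over 8 markers of mushroom body Kenyon cells, which also use Mef2 and Fas2, the sums were 2766 and 4654 CPM against 4404 and 3712 CPM in the controls. Together Pka-C1 and sNPF made up most of each sum, so the sums follow these genes more than the other markers. Pka-C1 was at 924 and 1402 CPM against 1224 and 1684 CPM in the controls, and sNPF at 553 and 2135 CPM against 2058 and 1081 CPM in the controls. The groups did not separate for any of the 8, whereas they were free of overlap for 32.8% of all genes tested. In NonA RNAi replicate 1, the highest for Mef2 and Fas2, 3 of the 8 were at their highest, toy at 633 CPM, CG10251 at 483 CPM and, by little, rut at 64.8 CPM, and the other 5 at their lowest, among them ey at 2.79 CPM and mub at 86.4 CPM. The part of Kenyon cells in the levels of Mef2 and Fas2 was not tested.

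Of the list around Mef2, 7 of 11 genes were tested, since lmd, tin, nau and Him, factors of muscle, stayed under 1 CPM on average. By fitted fold 6 were higher and 1 lower, with a median of 0.27, and 0 passed in edgeR. Clk, whose protein drives Mef2, was at 164 and 24.4 CPM in the NonA RNAi-labelled libraries and 28.6 and 96.9 CPM in the controls, so that libraries of the same label differed by more than the 2 means. Its partner gene cyc was at 52.2 and 46.4 CPM against 36 and 35 CPM in the controls. HDAC4, the gene of a deacetylase that binds and represses MEF2, was at 199 and 284 CPM in the NonA RNAi-labelled libraries and 373 and 294 CPM in the controls, a log2 fold of -0.47 (standard error 0.46).

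Among 20 other adhesion and guidance genes 9 were higher and 11 lower, with a median log2 fold of -0.14 and 0 past the threshold in edgeR. Lac, a gene of septate junctions, was at 10.03 and 16.6 CPM against 35 and 33.6 CPM in the controls, and the teneurin gene Ten-m at 256 and 420.2 CPM against 828 and 448 CPM in the controls. The integrin gene mys overlapped between the groups, with a log2 fold of 0.74. dlg1, whose scaffold protein binds FAS2 at synapses, was at 169 and 313 CPM against 239 and 225 CPM in the controls, a log2 fold of 0.06.

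In the BMP pathway, which acts on the growth of neuron terminals, 3 of 10 genes were higher and 7 lower, with a median of -0.57 and 0 past the threshold in edgeR. Among the receptor genes, wit and tkv stood on opposite sides of 0 by fitted fold. wit was at 544 and 159 CPM against 160 and 122 CPM in the controls, so its groups overlapped narrowly and only NonA RNAi replicate 1 stood out. tkv was at 33 and 86.5 CPM against 181 and 130 CPM in the controls. Mad, the gene of the signal transducer, was at 63.1 and 55.9 CPM against 115 and 66.9 CPM in the controls.

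**Figure D5:**
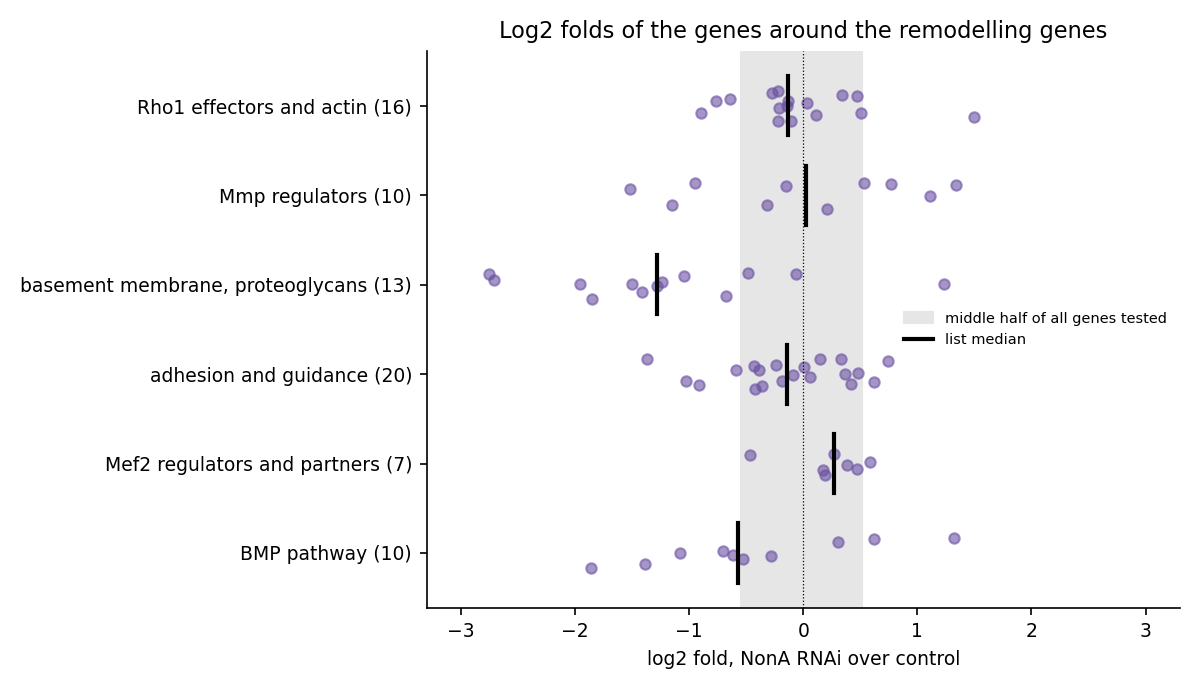
Log2 fold of the NonA RNAi-labelled libraries over those labelled control for every tested gene of 6 lists around the remodelling genes, with list medians as black bars and the middle range of all genes tested, -0.55 to 0.51 from the first to the last quartile, in grey; the number tested is in brackets. The medians of basement membrane and proteoglycan genes, at -1.28, and of BMP pathway genes, at -0.57, lie below the grey band and the other 4 within it.

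The genes with the profile most like each member were found by the root mean square difference of centred log2 levels over the 4 libraries, which with so few points is a description only. CG12746 and CG9705 came closest to Mef2, at 0.0303 and 0.0410, and Tango13 and CG18811 to Fas2, at 0.0332 and 0.0347. inx7, an innexin gene, and CG4400 came closest to Rho1, at 0.0150 and 0.0520. mRpS9 and CG13759 came closest to Mmp2, at 0.0289 and 0.0415, and CG11597 and CG1344 to Pura, at 0.0470 and 0.0836.

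Gyc32E, a guanylyl cyclase gene, and CG8083, which had under 3 CPM in every library, came closest to Mmp1, at 0.0751 and 0.0880. Few genes lay close to Mmp1 and Pura by this measure. A fixed limit holds fewer genes the further a profile lies from flat, so these counts do not show that a profile is distinctive. Within 0.2 of Mmp1 there were 12 genes and within 0.2 of Pura 37, against 189 for Mef2, 245 for Fas2, 197 for Rho1 and 361 for Mmp2. Gyc32E was at 75.6 and 44.9 CPM in the NonA RNAi-labelled libraries and 204 and 131 CPM in the controls.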

How the data were processed

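Whole-number raw read counts per gene symbol were used as deposited by the authors. The RPKM deposited by the authors served only as a filter in an alternative. Per the submitters' processing notes, TopHat2 2.1.1, Cufflinks and build dm3 were used; no source used here names the counting program, the annotation or the strand setting. Library sizes and tests leave out 5 entries without a gene name, 2 of them at 0; unassigned reads made up 27.8% to 32.5%, multiply aligned reads 45.2% to 55.6% and ambiguous reads 0.22% to 0.317% of entries.

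CPM are reads scaled to 1000000 gene reads, without further scaling. Genes with a mean of at least 1 CPM were tested with edgeR 4.0.16 (R 4.3.3; two-sided quasi-likelihood test, Benjamini-Hochberg over 9404 genes, threshold 0.05). The biological coefficient of variation was 73.7%. The standard error of a log2 fold was derived from its F statistic. Counting intervals, exact Poisson at 95%, had half-widths of 2.54% to 17.4% for the 6 genes and cover counting error only, since the RNA was amplified. Exon lengths came from Ensembl release 115 (BDGP6), another build than dm3, so no coordinates are given.

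Members, lists and tests were chosen with earlier results of these data known. Named from each list were the 3 genes of smallest p with a mean of at least 10 CPM in the higher group. For each member 2 genes alike were named. After their values were seen, sqh, zip, rok, dia, dlg1, Pof, Pxn, Cg25C and vkg were added. Clk and Pxn stand in both a pathway and a marker list. Alternatives were TMM and median-of-ratios scaling, library size without Pdf, other filters, DESeq2 1.42.0, limma-voom (limma 3.58.1), the replicate block and each library left out; a combined setting was added later. The tests were run on simulated data with changes far larger than the folds of the remodelling genes. That does not show whether folds of their size can be detected. Results for 2 further gene lists are not reported here.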

Additional observations from a re-analysis of the deposited data

How the results depend on the processing

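Across the alternatives, 0 of the remodelling genes passed the threshold of 0.05, and the direction of the log2 fold was kept for Mef2, Fas2, Rho1, Mmp1 and Mmp2 in each that tested them. It turned for CG33275 (Pura), to -0.047 without NonA RNAi replicate 2, within a range of -0.047 to 1.22 over the libraries left out. The number of genes past the threshold, 0 in edgeR, became 142 with DESeq2 and 79 without a filter, where 10884 genes were tested, and lay between 0 and 22 with single libraries left out, at 22 without control replicate 2; the cause was not tested. Groups were free of overlap for 4 of the 6 genes under each scaling, beside 32.8% to 33% of all genes tested. With a library left out, an alternative chosen after seeing the data that can only keep or raise this count, it was 4 to 6 of 6, beside 61.3% to 72.4% of all genes. A mean RPKM of at least 1 removed Fas2, Mmp1 and CG33275, whose RPKM is computed over whole gene spans; this filter together with TMM scaling, chosen after seeing the data, gave a log2 fold of 0.73 for Mef2.

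The replicate numbers pair no samples by the labels, and deviations of same-numbered libraries had a correlation of -0.0153 across genes. With the replicate number as a block the log2 folds were 0.73 for Mef2, 0.50 for Fas2, -0.74 for Rho1, -1.63 for Mmp1, 0.43 for Mmp2 and 0.59 for CG33275, and 0 genes passed. A library left out leaves a lone library assumed to vary like the other group. With 2 libraries a group, the median standard error of a log2 fold was 0.64, which limits what could be detected.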
